A study of Caenorhabditis elegans with 12 samples.

Results

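The genes described here are the numbered nuclear hormone receptor (nhr) genes of Caenorhabditis elegans, taken as every gene of the authors' result sheets whose symbol is nhr- followed by a number, with the larval development regulators nhr-23 and nhr-25 left out. This rule gave 230 genes of 44968 features in the count files, and all 230 were tested. The sheets hold genes above a minimum level, so all 230 had already passed a filter on low values, and a gene that passed it through the group in which it is high had to differ between groups. Embryos of the wild-type strain N2 were plated on 100 or 500 mM NaCl, either with the food bacterium E. coli OP50 or with none, and whole L1 larvae were collected after 24 h at 25 °C. These conditions give 4 groups of 3 libraries, lettered A, B and C, which are called fed 100 mM, unfed 100 mM, fed 500 mM and unfed 500 mM below. No group carries a mutation or transgene. By its title the series concerns the arrest of L1 larvae in osmotic stress and in starvation, and since every library comes from 24 h, progress through development cannot be told apart from food or salt. In whole larvae, fewer cells of a type and less RNA per cell cannot be told apart either.

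Nuclear hormone receptors are transcription factors that bind DNA through zinc fingers and carry a pocket for small fat-soluble ligands such as steroids, fatty acids or bile acids. Nematodes hold far more of them than flies or mammals, most of them descended from an HNF4-like ancestor, while a minority have clear counterparts across animals. In the worm's intestine and epidermis they are known to adjust fat, sterol and propionate metabolism to diet, to sense toxins and to time larval development.

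Levels are counts per 1000000 reads (CPM) on the TMM-scaled library size, given per library or as mean ± SD (n = 3), and changes are log2 fold changes ± SE. A gene was called, and is said to have risen or fallen, at a Benjamini-Hochberg adjusted p under 0.05 by edgeR's quasi-likelihood F-test, adjusted over the whole set of 18028 tested genes. Reads on genes ranged from 5613260 in unfed 500 mM A to 76542711 in fed 100 mM C. Unfed 500 mM A also had the lowest share of aligned reads, 38.6%, and fed 500 mM C had the highest share of ribosomal RNA reads, 81.8%, so counts of called receptors are also given without these 2 libraries. Receptor transcripts summed to 3326 to 3549 CPM in the fed 100 mM libraries and 3550 to 3682 in unfed 100 mM. The sums were 3661 to 4324 CPM in fed 500 mM and 3196 to 4524 in unfed 500 mM libraries. As a share of reads outside ribosomal RNA genes they were 0.350% to 0.367% in the fed 100 mM libraries, 0.410% to 0.491% in unfed 100 mM, 0.522% to 0.592% in fed 500 mM and 0.549% to 0.616% in unfed 500 mM libraries. These shares do not overlap between fed 100 mM larvae and any other group. The scaled sums in CPM do overlap between fed 100 mM and unfed 500 mM, where library A lies below every fed 100 mM library.

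Salt changed more receptors than food did. With food, 67 of 230 receptors were called between 500 and 100 mM NaCl, which is 29.1% of them beside 38.3% of all genes tested, and without food 38 were called, which is 16.5% beside 17.9%. Lack of food called 8 receptors at 100 mM NaCl, 3.48% beside 7.68% of all genes, of which 5 rose and 3 fell where 3.57% of all genes rose and 4.11% fell. At 500 mM NaCl it called 1, which rose, 0.435% beside 0.0777% of all genes, where 0.0721% rose and 0.00555% fell. By direction, 42 receptors rose and 25 fell in salt with food, where 16.1% of all genes rose and 22.1% fell. Without food 25 receptors rose and 13 fell in salt, where 6.72% of all genes rose and 11.2% fell. Groups of 3 libraries that do not overlap in CPM are common here: for salt with food 121 of 230 receptors have them, beside 62.5% of all genes, for salt without food 76 (29.1% of all genes), and between unfed and fed larvae 97 at 100 mM NaCl (41.4%) and 19 at 500 mM NaCl (10.2%). The median log2 fold change in salt was 0.28 over the receptors and 0.12 over all genes with food, and 0.17 against 0.08 without food. For lack of food the medians were 0.20 against 0.15 at 100 mM NaCl and 0.15 against 0.15 at 500 mM NaCl.

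**Figure D1:**
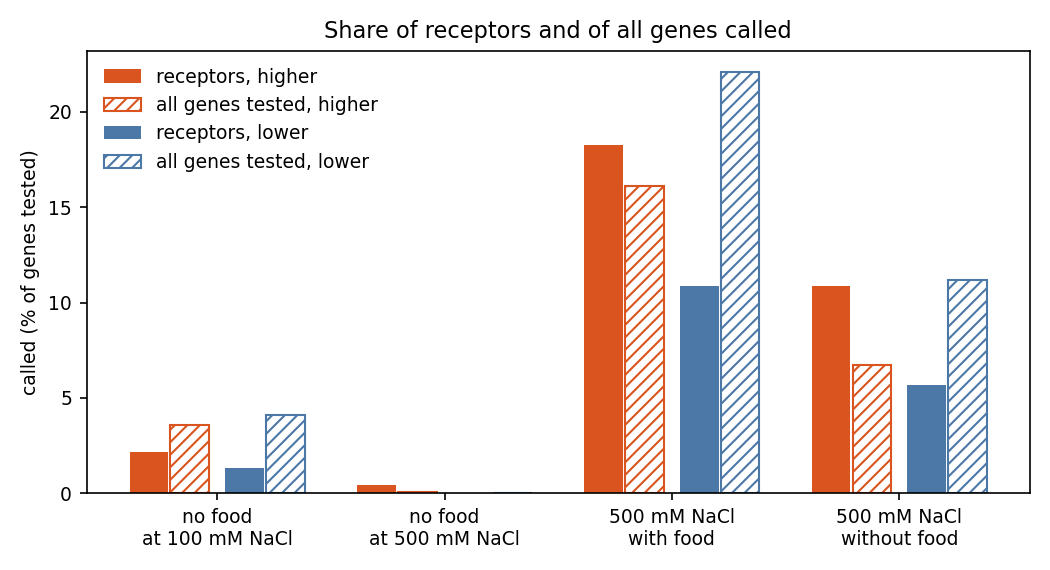
Share of genes called higher or lower, in percent of genes tested, for the 4 comparisons of food or salt. Filled bars stand for the 230 receptors and hatched bars for all 18028 genes; among receptors the bar for higher exceeds that for lower in both salt comparisons (18.3% and 10.9% with food, 10.9% and 5.65% without), while among all genes the order is reversed (16.1% and 22.1%, 6.72% and 11.2%).

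The scaling moves these splits. Upper-quartile scaling shifted the median of all genes in salt from 0.12 to 0.55 with food and from 0.08 to 0.24 without food, and for lack of food at 100 mM NaCl from 0.15 to 0.36. Under it, 88 receptors rose and 14 fell in salt with food, where 26.3% of all genes rose and 15.0% fell, so the order over all genes turned as well. Without food 32 rose and 9 fell in salt, beside 9.89% and 9.71% of all genes, and for lack of food at 100 mM NaCl 18 rose and 1 fell, beside 6.1% and 3.04%. With no filter on low counts the receptors' split with food turned, with 18 higher and 30 lower, beside 5.81% and 13.7% of all genes. Without unfed 500 mM A and fed 500 mM C, 73 receptors were called in salt with food (41.8% of all genes), 54 in salt without food (25.3%) and, between unfed and fed larvae, 28 at 100 mM NaCl (17.7%) and 0 at 500 mM NaCl (0.0493%). Without those 2 libraries the counts thus moved in the direction of the share of all genes. In other settings the receptors and all genes moved by different amounts. Under upper-quartile scaling 44.3% of receptors were called in salt with food, beside 41.4% of all genes. With no filter on low counts it was 20.9% beside 19.5%, and all genes kept their order where the receptors' split turned. That setting adds every gene with any read to all genes, while the receptors stay at 230 that had passed a filter. The 2 shares therefore rest on unlike filters, and their closeness is not a result about the receptors.

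Sorted by what they were called for, 71 receptors were called for salt alone (30.9%, beside 35.7% of all genes), 2 for food alone (0.870%, beside 1.16%), 7 for food and salt (3.04%, beside 6.57%) and 150 for neither (65.2%, beside 56.6%). The comparisons of food and of salt share libraries, so the group called for both is a count and not a test of a shared response. The 2 receptors called for food alone were nhr-17 and nhr-57. The 7 called for both were nhr-2, nhr-11, nhr-93, nhr-124, nhr-125, nhr-137 and nhr-221.

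Of the lipid-responsive receptors, nhr-49 (K10C3.6), which acts in the worm much as PPAR-alpha does in mammals and drives fat breakdown and desaturation genes in fasting, was not called in any comparison. It measured 130, 160 and 157 CPM in fed 100 mM A, B and C, 141, 147 and 166 in unfed 100 mM, and 133, 164 and 155 in fed 500 mM libraries. In unfed 500 mM libraries it measured 93.7, 173 and 156 CPM. Apart from the low value of unfed 500 mM A, which had the fewest reads, all libraries lie in one range and no group separates from another. Salt with food gave a log2 fold change of 0.02 ± 0.26 (95% interval -0.54 to 0.57, adjusted p = 0.966), and lack of food at 100 mM NaCl gave 0.02 ± 0.26 (-0.53 to 0.57, adjusted p = 0.967). Salt without food and lack of food at 500 mM NaCl both gave intervals of -0.65 to 0.45. Changes inside these intervals remain possible with 3 libraries per group. The intervals are not the smallest change that could be called, since a call also had to pass the adjustment over all tested genes.

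By contrast, nhr-11 (ZC410.1) was low in a single group. Fed 100 mM libraries held 21.9, 26.4 and 22.9 CPM, unfed 100 mM 20.7, 18.8 and 18.7, and unfed 500 mM 22.1, 20.8 and 23.7. Fed 500 mM libraries held 10.0, 5.39 and 8.12 CPM and lie below every other library. With food, salt lowered nhr-11 by a log2 fold change of -1.60 ± 0.25 (adjusted p = 0.000154), while without food the difference was 0.20 ± 0.24 (95% interval -0.31 to 0.70, adjusted p = 0.623). Lack of food left it at -0.29 ± 0.24 at 100 mM NaCl (adjusted p = 0.438) and raised it by 1.5 ± 0.25 at 500 mM NaCl (adjusted p = 0.0376). The difference between these responses was itself called, at 1.80 ± 0.35 (adjusted p = 0.0183). The fall in salt with food was called in all 12 fits that left out 1 library, whereas the food response at 500 mM NaCl was called in 3 of them and had an adjusted p of 0.0949 without unfed 500 mM A and fed 500 mM C. The interaction was called in 7 of the 12 fits.

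**Figure D2:**
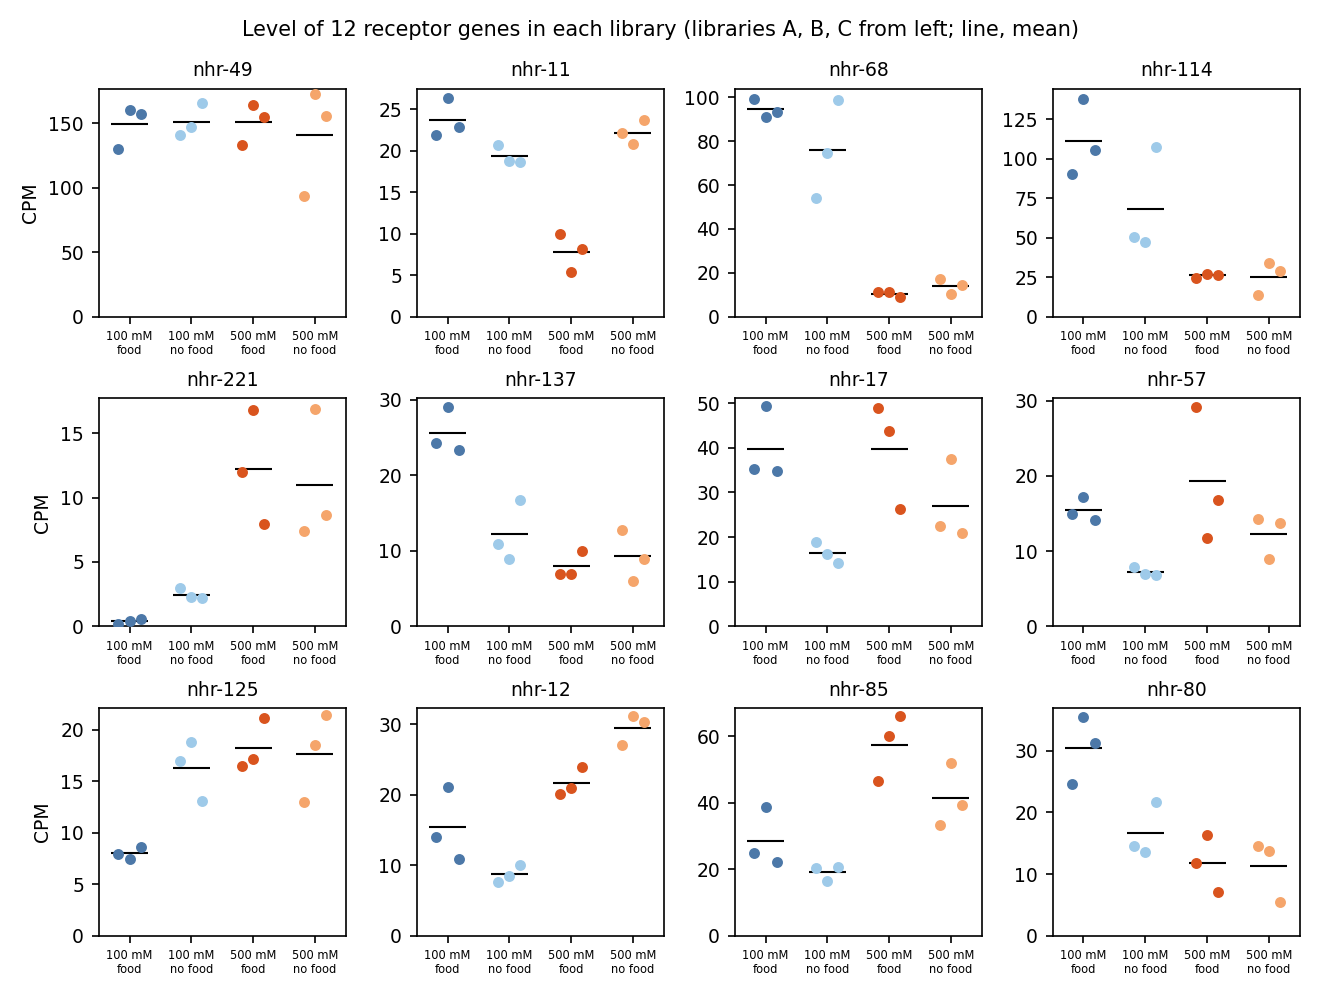
Level in CPM of 12 receptor transcripts, 1 point per library (A, B and C from left to right within a group) with a line at the group mean. The nhr-49 points overlap across groups, nhr-11 is low in fed 500 mM larvae at 5.39 to 10.0 CPM, nhr-68 and nhr-114 are low in both 500 mM groups, and nhr-221 is lowest in fed 100 mM larvae.

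Among 12 receptors with roles in lipid and nutrient metabolism, 5 fell and 1 rose in salt with food, 2 fell in salt without food, and none was called for food with all 12 libraries. Of all genes, 22.1% fell and 16.1% rose in salt with food, and 11.2% fell in salt without food. The median log2 fold change of the 12 was -0.58 with food and -0.36 without. The medians were 0.28 and 0.17 over all receptors, and 0.12 and 0.08 over all genes tested. The deepest falls were those of nhr-68, which works with nhr-10 to switch on the propionate shunt when vitamin B12 is scarce, and nhr-114, an HNF4-like receptor that protects the germline when the bacterial diet is poor. The transcript of nhr-68 (H12C20.3) measured 99.3, 91.1 and 93.4 CPM in fed 100 mM and 54.2, 74.5 and 99.0 in unfed 100 mM libraries, against 11.1, 11.2 and 9.14 in fed 500 mM and 17, 10.5 and 14.6 in unfed 500 mM libraries. Every 500 mM library lies below every 100 mM library. The log2 fold changes in salt were -3.16 ± 0.28 with food (adjusted p = 2.32e-06) and -2.44 ± 0.27 without (adjusted p = 1.78e-05), and both were called in all 12 fits that left out a library.

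The nhr-114 transcript measured 90.3, 138 and 105 CPM in fed 100 mM and 50.7, 47.1 and 107 in unfed 100 mM libraries. It measured 24.6, 27 and 26.6 CPM in fed 500 mM and 13.7, 33.6 and 28.7 in unfed 500 mM libraries. Both 500 mM groups lie below both 100 mM groups, and unfed 100 mM C lies among the fed 100 mM libraries, as it does for nhr-68. That library stands near the fed group over all genes tested: on the first principal component it lies at 99.4, beside 114.4 to 124.4 for fed 100 mM and 18.8 and 51.9 for unfed 100 mM A and B. Without it nhr-114 was called lower for lack of food at 100 mM NaCl, at log2 -1.30 (adjusted p = 0.0304) in place of -0.70 (adjusted p = 0.209). The nhr-114 transcript fell in salt by log2 -2.09 ± 0.36 with food (adjusted p = 0.000366) and -1.42 ± 0.36 without (adjusted p = 0.0103). The fall without food was called in 11 of the 12 fits that left out a library, with values from -1.69 to -0.85; the exception was the fit without unfed 100 mM C, at -0.85 (adjusted p = 0.134).

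A further set of lipid receptors fell in salt with food, and their changes without food were not called. nhr-80, a partner of nhr-49 needed for fat desaturation and for the long life of worms without a germline, went from 24.7, 35.4 and 31.3 CPM in fed 100 mM to 11.8, 16.3 and 7.11 in fed 500 mM libraries, without overlap, a log2 fold change of -1.35 ± 0.36 (adjusted p = 0.00811). nhr-76, which acts in the intestine in serotonin-driven fat loss, fell by log2 -1.52 ± 0.50 (adjusted p = 0.0242) from 3.82 ± 0.25 CPM, and nhr-8, which keeps cholesterol and bile-acid-like hormones in balance and resists toxins, fell by log2 -0.89 ± 0.32 (adjusted p = 0.0396). The nhr-8 gene overlaps other genes on both strands and the libraries keep no strand, so its reads cannot be told apart from theirs. The falls of nhr-80, nhr-76 and nhr-8 were called in 12, 7 and 6 of the 12 fits that left out a library. nhr-66, which with nhr-49 restrains sphingolipid and lipid remodelling genes, was the list's riser: it went from 34.3, 40.4 and 44.2 CPM in fed 100 mM to 67.3, 65.5 and 79.6 in fed 500 mM libraries, log2 0.83 ± 0.23 (adjusted p = 0.00994). nhr-10, nhr-13, nhr-62, nhr-64 and nhr-69 were not called in any comparison. The interaction was called for none of the 12, so the difference between the salt responses with and without food is not shown for them.

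**Figure D3:**
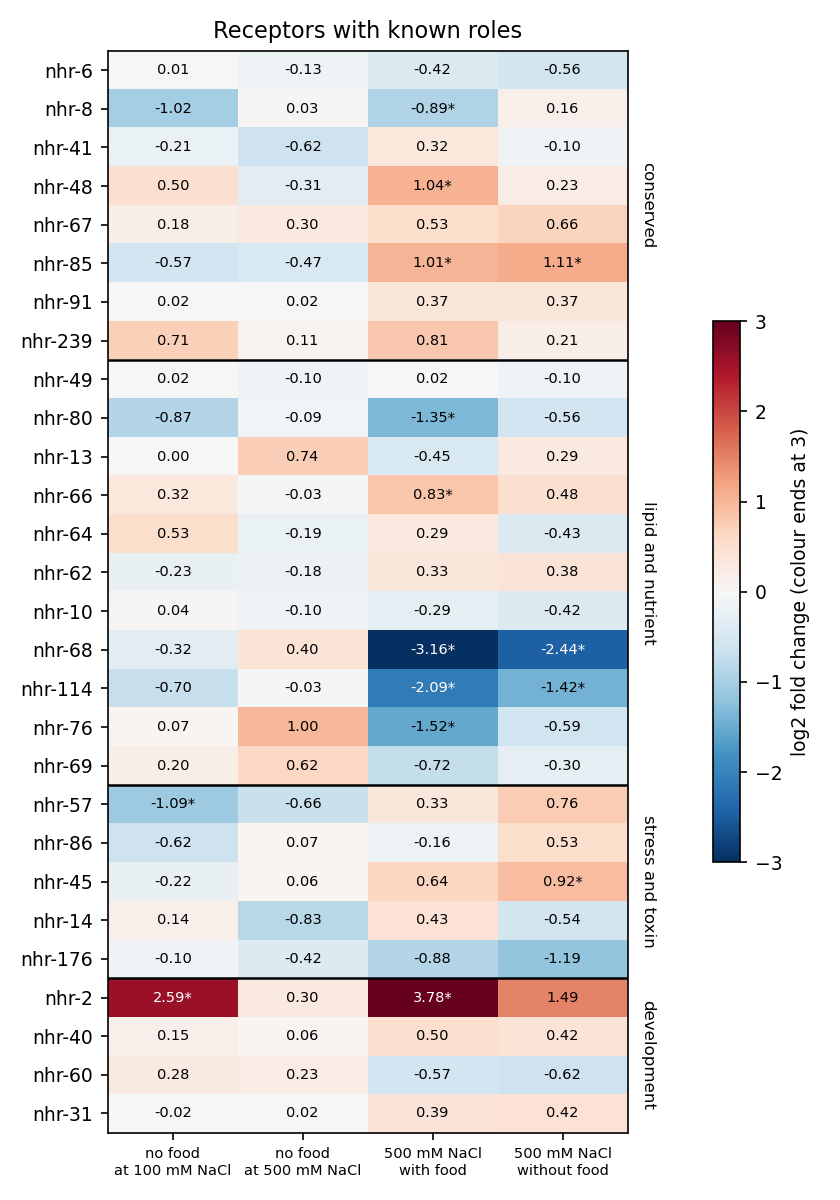
Log2 fold changes of 28 receptors with known roles (rows) in the 4 comparisons of food or salt (columns), with an asterisk where the change was called and each receptor drawn once. The deepest blue cells are those of nhr-68 in salt (-3.16 and -2.44), and the column for lack of food at 500 mM NaCl holds no asterisk.

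The transcripts of genes that these receptors are reported to control were examined beside them, from lists chosen with earlier results of these data known. The 5 genes of the propionate shunt, the B12-independent route that nhr-68 and nhr-10 activate, gave 4 called falls and 1 rise in salt, both with and without food. Over all genes tested, 22.1% fell and 16.1% rose in salt with food, and 11.2% fell and 6.72% rose without. The acyl-CoA dehydrogenase acdh-1, the shunt's first enzyme, went from 1336, 1379 and 1345 CPM in fed 100 mM to 68.9, 47.2 and 33.9 in fed 500 mM libraries, log2 -4.75 ± 0.51 (adjusted p = 7.08e-06). The enoyl-CoA hydratase ech-6 fell by -4.38 ± 0.47, hphd-1 by -4.07 ± 0.55 and hach-1 by -2.93 ± 0.51 on the log2 scale, and alh-8, the last enzyme of the route, rose by 1.85 ± 0.28. Without food acdh-1 and ech-6 were called lower at 100 mM NaCl too, at log2 -1.51 ± 0.44 and -1.51 ± 0.42, while nhr-68 gave -0.32 ± 0.26 (adjusted p = 0.434). In unfed 100 mM A, B and C acdh-1 measured 213, 296 and 914 CPM, so library C was the highest of the group, as it was for nhr-68. Without unfed 100 mM C the food response was log2 -2.52 for acdh-1 and -2.34 for ech-6, hach-1 and hphd-1 were called lower as well (-2.63 and -2.74), and nhr-68 gave -0.67 (adjusted p = 0.131). In that fit the fall of hach-1 in salt without food was no longer called (-0.33). nhr-10 was not called in any comparison. Of 10 tested genes reported to depend on nhr-49, 6 fell in salt with food, and 4 fell and 1 rose in salt without food. At 100 mM NaCl lack of food raised fat-5 (log2 2.67 ± 0.31) and cpt-5 (1.48 ± 0.37) and lowered acs-2 (-2.94 ± 0.71) and hacd-1 (-4.10 ± 0.38). Without unfed 100 mM C the value of acs-2 was -4.28, and icl-1 (-1.53) and acdh-2, which had 0 reads in both remaining libraries, were called lower too. These genes changed in either direction while the nhr-49 transcript measured the levels given above.

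Among 6 receptors linked to stress or toxins, which include nhr-8, 1 fell for lack of food, 1 fell in salt with food and 1 rose in salt without food. Beside them, 4.11% of all genes fell for lack of food at 100 mM NaCl, 22.1% fell in salt with food and 6.72% rose without. nhr-57, a target of the hypoxia factor HIF-1, measured 14.9, 17.2 and 14.2 CPM in fed 100 mM and 7.83, 7.0 and 6.81 in unfed 100 mM libraries. The groups do not overlap, and the fall was log2 -1.09 ± 0.31 (adjusted p = 0.0447). In fed 500 mM libraries nhr-57 ranged from 11.8 to 29.2 CPM, the widest spread of its 4 groups. nhr-45, which takes part in the expression of detoxification enzymes, rose in salt without food by log2 0.92 ± 0.27 (adjusted p = 0.026), from 43.3 ± 7.07 to 81.6 ± 25.2 CPM. nhr-14, nhr-86 and nhr-176 were not called; nhr-86, a sensor of a bacterial metabolite that triggers intestinal defence, measured 26.9 to 36.7 CPM in fed 100 mM and 18.9 to 22.1 in unfed 100 mM libraries.

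Of 8 receptors with counterparts across animals, 2 rose and 1, nhr-8, fell in salt with food, and 1 rose without food. The shares of all genes were 16.1% higher and 22.1% lower in salt with food, and 6.72% higher in salt without food. nhr-85, the counterpart of the Rev-erb clock receptors, which sets pulses of developmental microRNA transcription in larvae, was the receptor of this list called in both. It measured 24.9, 38.6 and 22.2 CPM in fed 100 mM against 46.6, 59.9 and 66 in fed 500 mM libraries, and 20.5, 16.5 and 20.6 in unfed 100 mM against 33.2, 51.9 and 39.3 in unfed 500 mM libraries. Neither pair of groups overlaps, and the log2 fold changes were 1.01 ± 0.27 (adjusted p = 0.00747) and 1.11 ± 0.27 (adjusted p = 0.00805). nhr-48, of the vitamin D receptor group, rose with food from 41.4, 49 and 60.5 to 89.2, 107 and 115 CPM, log2 1.04 ± 0.27 (adjusted p = 0.00681). nhr-6, nhr-41, nhr-67, nhr-91 and nhr-239 were not called in any comparison.

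Of 9 receptors with developmental roles, 1 was called for food, 2 in salt with food and 1 in salt without food. nhr-31, nhr-40 and nhr-60 were among those not called. Called shares of all genes were 7.68% for food at 100 mM NaCl, 38.3% in salt with food and 17.9% in salt without food. Beside nhr-85, the called gene was nhr-2, which is transcribed in the early embryo. It was scarce in fed 100 mM libraries, at 0.305, 0.239 and 0.185 CPM from 23 reads in all, and reached 1.30, 1.71 and 1.33 CPM in unfed 100 mM, 2.80, 2.61 and 4.67 in fed 500 mM and 7.94, 2.29 and 2.14 in unfed 500 mM libraries. Every other library lies above the fed 100 mM libraries. It rose by log2 2.59 ± 0.65 for lack of food at 100 mM NaCl (adjusted p = 0.0255) and by 3.78 ± 0.67 in salt with food (adjusted p = 0.00043). Summed embryo markers were 0.503 to 1.49 CPM in fed 100 mM, 0.609 to 5.44 in unfed 100 mM, 3.21 to 6.50 in fed 500 mM and 2.25 to 19.8 in unfed 500 mM libraries. None of 5 tested embryo markers was called, and their median log2 fold change was 1.86 in unfed against fed larvae at 100 mM NaCl and 3.15 in salt with food. Their part in the level of nhr-2 was not tested.

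Lack of food at 100 mM NaCl raised 5 receptors and lowered 3. Of those with at least 5 CPM, nhr-125 rose from 7.92, 7.47 and 8.64 CPM in fed to 17, 18.8 and 13.1 in unfed libraries, log2 1.03 ± 0.25 (adjusted p = 0.0245). nhr-17 fell from 35.2, 49.3 and 34.8 to 18.8, 16.1 and 14.1 CPM, log2 -1.28 ± 0.29 (adjusted p = 0.0177), and nhr-137 fell from 24.3, 29.0 and 23.4 to 10.9, 8.92 and 16.8 CPM, log2 -1.07 ± 0.31 (adjusted p = 0.0460). None of these groups overlap, which was a condition for naming these receptors. Fed 500 mM libraries of nhr-17 measured 49, 43.7 and 26.2 CPM, beside the fed 100 mM libraries, while nhr-137 was low in both 500 mM groups, at 6.05 to 12.8 CPM. nhr-93 and nhr-124, scarce in fed 100 mM larvae at 0.498 ± 0.338 and 1.03 ± 0.0647 CPM, rose by log2 2.13 ± 0.60 and 1.67 ± 0.49. nhr-17, nhr-57, nhr-124 and nhr-125 overlap a gene on the same strand, so their reads cannot be told apart from that gene's with certainty.

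A receptor called for food and for salt with and without food was nhr-221, and its rise in salt with food was the highest among the called receptors with at least 5 CPM. It measured 0.183, 0.418 and 0.555 CPM in fed 100 mM, 2.94, 2.23 and 2.16 in unfed 100 mM, 12, 16.8 and 7.92 in fed 500 mM, and 7.37, 16.9 and 8.66 in unfed 500 mM libraries. Before scaling, 3 reads correspond to 0.183, 0.180 and 0.0392 CPM in fed 100 mM A, B and C. The fed 100 mM values of A and B thus rest on few reads, and folds against this group are imprecise. Fed 100 mM, unfed 100 mM and the pooled range of the 500 mM libraries are separate, and both 500 mM groups overlap. The log2 fold changes were 2.53 ± 0.46 for lack of food at 100 mM NaCl (adjusted p = 0.00627), 4.86 ± 0.49 in salt with food (adjusted p = 4.56e-06) and 2.17 ± 0.42 in salt without food (adjusted p = 0.00168). All 3 were called in each of the 12 fits that left out a library. The salt response differed with food, with an interaction of -2.69 ± 0.61 (adjusted p = 0.035) that was called in 4 of those 12 fits. At 500 mM NaCl lack of food gave -0.16 ± 0.40 (95% interval -1.0 to 0.67).

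The count for lack of food at 100 mM NaCl depends on single libraries, as does the share of all genes called. Leaving out unfed 500 mM A, which is in neither group, gave 25 called receptors in place of 8 (16.3% of all genes in place of 7.68%), and leaving out unfed 100 mM C gave 12 (11%). Without fed 500 mM A or fed 500 mM B it gave 5 (4.99% and 4.5%). Without fed 100 mM A it gave 2 (1.89%), and without fed 100 mM B, fed 100 mM C, unfed 100 mM A or unfed 100 mM B it gave 1, nhr-221 in each case, beside 1.09% to 1.76% of all genes. At an unadjusted p under 0.05, 47 of 230 receptors passed at 100 mM NaCl, beside 26.5% of all genes, and 15 at 500 mM NaCl, beside 7.92%; in salt 91 passed with food, beside 47.9%, and 72 without food, beside 30.6%.

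For salt with food, the risers named here were picked for the highest folds among called receptors at 5 CPM or more whose groups do not overlap. Those given below rose by more than 1 on the log2 scale. nhr-167 went from 1.04, 1.49 and 1.51 to 9.95, 9.88 and 8.94 CPM, log2 2.82 ± 0.37 (adjusted p = 3.51e-05). nhr-213 went from 6.34, 7.41 and 6.34 to 20.3, 17.3 and 15.8 CPM, log2 1.42 ± 0.27 (adjusted p = 0.000694). nhr-88 went from 51.3, 69.9 and 78.4 to 135, 168 and 147 CPM, log2 1.17 ± 0.30 (adjusted p = 0.00634). The rule also names nhr-152, nhr-216, nhr-125 and nhr-47, with log2 fold changes of 1.54, 1.31, 1.18 and 1.2. No role is given for these genes here. With fed 100 mM A, B or C left out, 34, 37 and 36 receptors were called in place of 67, beside 25.3%, 24.2% and 25.4% of all genes in place of 38.3%. Called rises then numbered 17, 18 and 19 against 17, 19 and 17 falls, where 8.32%, 7.84% and 8.5% of all genes rose and 16.9%, 16.3% and 16.9% fell. Of the 67 calls, 29 held in all 12 fits that left out a library.

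The deepest falls in salt with food belonged to 5 receptors that lie in 2 runs of neighbouring receptor genes on chromosome I. nhr-74, nhr-73 and nhr-259 (C27C7.3, C27C7.4 and C27C7.8) form the first run, and nhr-245 and nhr-113 (ZK1025.10 and ZK1025.9) the second. In the 6 100 mM libraries nhr-113 held 11.7 to 18.6 CPM and nhr-74 held 11.3 to 19.5. In fed 500 mM libraries nhr-113 held 0.323, 0.0606 and 0.812 CPM and nhr-74 held 0.215, 0.0606 and 1.83. Every 500 mM library of these 5 receptors lies below every 100 mM library. The log2 fold changes with food were -5.73 ± 1.16 for nhr-113, -5.24 ± 0.92 for nhr-245, -5.24 ± 1.06 for nhr-74, -5.04 ± 0.96 for nhr-259 and -4.82 ± 0.74 for nhr-73, and the highest adjusted p was 0.00189. Fed 500 mM libraries held between 9 and 19 reads per gene in all 3 together, so the size of these falls is imprecise.

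Without food the same 5 receptors fell in salt by log2 -5.0 ± 0.75 (nhr-73), -3.86 ± 0.93 (nhr-74), -3.80 ± 0.83 (nhr-245), -3.34 ± 0.84 (nhr-259) and -3.04 ± 0.94 (nhr-113). Unfed 500 mM A held more of them than B or C: for nhr-113 it held 5.30 CPM against 0.183 and 0.115, and for nhr-74 3.11 against 0.137 and 0.231. Without unfed 500 mM A and fed 500 mM C the 5 values were -6.16, -6.19, -5.80, -5.87 and -6.35 in the same order. The fall of nhr-113 without food was called in 3 of the 12 fits that left out a library, and the falls of the other 4 in all 12. Of 37 runs of 2 or more neighbouring receptors, 4 had every member called in the same direction in salt with food: these 2, nhr-234 with nhr-235, which fell, and nhr-272 with nhr-214, which rose. The runs were picked out after their values were seen, and where neighbours are close copies, reads could have been split between them.

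**Figure D4:**
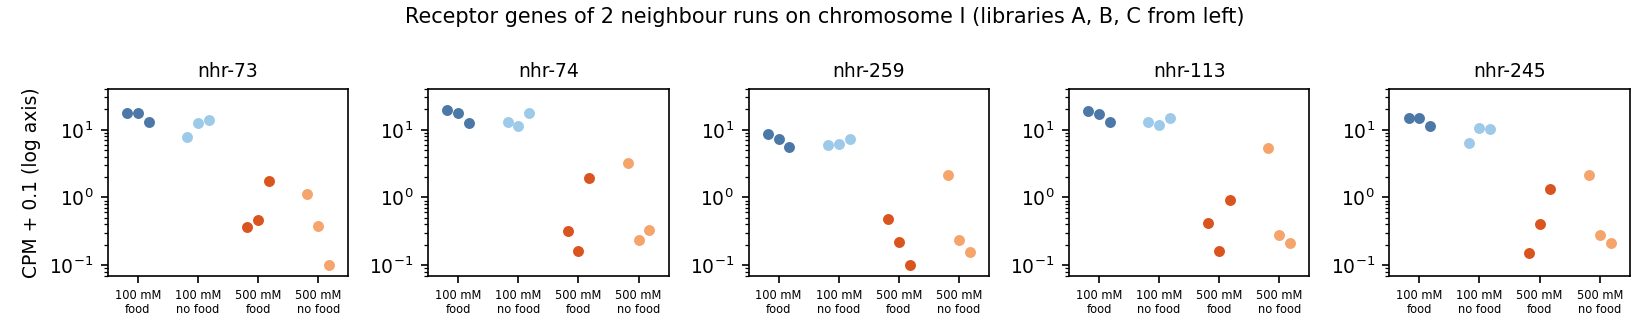
Level of the 5 receptors of the neighbour runs on chromosome I in each library, as CPM + 0.1 on a log axis, with libraries A, B and C from left to right in each group. All 6 100 mM points of each gene lie above all 6 500 mM points, and unfed 500 mM A is the highest point of its group in every panel.

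Among receptors that rose in salt without food, nhr-12 is an example of a change not called with food. It measured 7.58, 8.48 and 10.1 CPM in unfed 100 mM against 27.1, 31.2 and 30.3 in unfed 500 mM libraries, log2 1.76 ± 0.26 (adjusted p = 0.000205), and with food it gave 0.50 ± 0.26 (adjusted p = 0.135). nhr-177 went from 4.74, 7.21 and 6.76 to 16.1, 18.2 and 17.3 CPM, log2 1.46 ± 0.27, and nhr-53 from 7.08, 9.44 and 8.75 to 25.8, 19.2 and 19.9 CPM, log2 1.35 ± 0.24. Neither was called with food, at 0.14 ± 0.27 and 0.22 ± 0.23. The interactions of nhr-12, nhr-177 and nhr-53 had adjusted p-values of 0.0786, 0.0785 and 0.0823, so a difference between their salt responses with and without food was not called. nhr-93 and nhr-3 rose by log2 2.24 ± 0.56 and 1.41 ± 0.36, and nhr-3 overlaps a gene on the opposite strand. nhr-90 fell from 20.8, 24.7 and 18.4 to 8.40, 10.4 and 8.32 CPM, log2 -1.23 ± 0.25 (adjusted p = 0.00218), and also fell with food (-0.80 ± 0.25).

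Receptors called in salt without food were mostly called with food too, in the same direction. Of risers, 15 were shared, which is 35.7% of the 42 with food and 60% of the 25 without. Of those that fell, 12 were shared, which is 48% of 25 and 92.3% of 13, and none was called in opposite directions. The same shares over all genes were not computed, so this overlap is not shown to be particular to receptors. These comparisons share no library, but all libraries share the scaling and the estimate of spread. Across the 230 receptors the log2 fold changes in salt with and without food correlated at Pearson r = 0.74 and Spearman rho = 0.62, beside r = 0.70 over all genes tested; genes are not independent replicates. For the food comparisons at 100 and at 500 mM NaCl the corresponding value was r = 0.07, beside 0.16 over all genes. Leaving out unfed 100 mM B or C lowered the 38 calls without food to 19 and 23, beside 12.3% and 11.1% of all genes in place of 17.9%, and 15 of the 38 held in all 12 fits that left out a library.

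**Figure D5:**
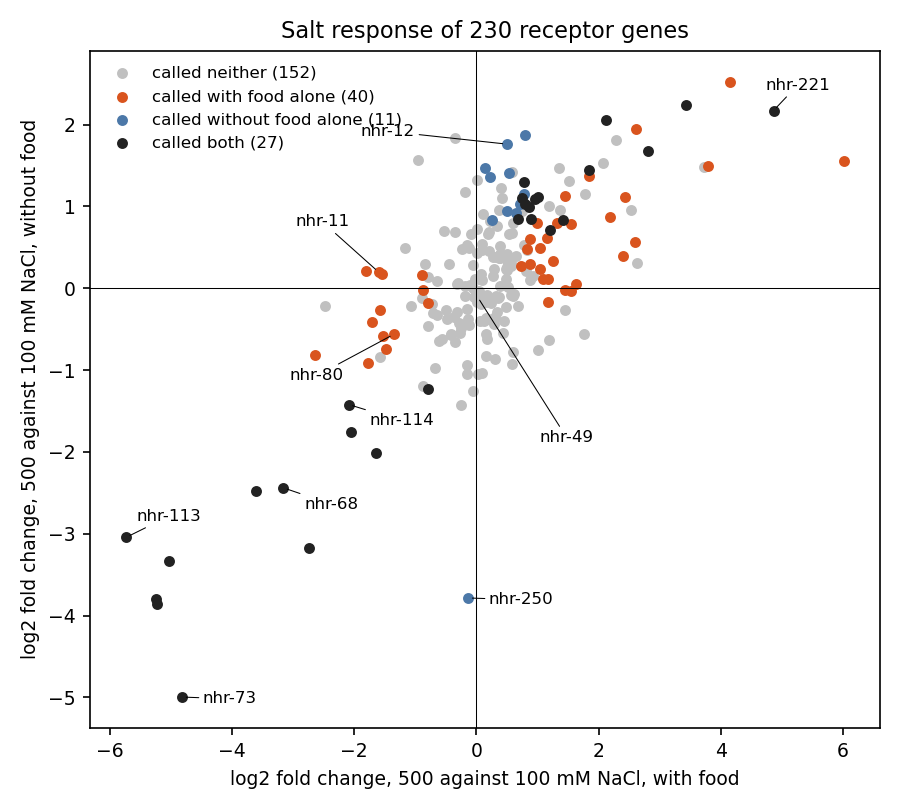
Log2 fold change of each of 230 receptors between 500 and 100 mM NaCl with food (horizontal) and without food (vertical), coloured by where it was called. The 27 receptors called in both lie in the lower left and upper right, nhr-11 lies left of 0 near the horizontal axis, and nhr-250 lies low near the vertical axis.

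The pseudogene nhr-250 was called in salt without food, from 3.29 ± 0.875 CPM to 0.234 ± 0.0528, log2 -3.79 ± 0.73 (adjusted p = 0.00171), and not with food (-0.14 ± 0.65). It is 1 of 7 members annotated as pseudogenes, and nhr-151, another, fell in salt with food by log2 -1.77 ± 0.48. Only 2 receptors were called for the interaction, nhr-11 and nhr-221, which is 0.870% of the 230 beside 2% of all genes (1.56% in the direction of nhr-11 and 0.433% in that of nhr-221), and 30 of 230 had an unadjusted interaction p under 0.05, beside 17.9% of all genes. Without unfed 500 mM A, 8 receptors were called for it, beside 5.26% of all genes.

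Per kilobase of coding sequence, nhr-97 had the highest transcript level in every group, at 215 ± 2.54 CPM per kb in fed 100 mM, 209 ± 19.0 in unfed 100 mM, 162 ± 26.6 in fed 500 mM and 140.2 ± 41.1 in unfed 500 mM larvae. It overlaps a gene on the opposite strand. In fed 100 mM larvae nhr-49 followed at 99.3 ± 11.1, then nhr-114 at 88.6 ± 19.4, nhr-68 at 81.9 ± 3.66 and nhr-1 at 52.6 ± 4.24 CPM per kb. The ranges of nhr-49, nhr-114 and nhr-68 were 86.6 to 106.7, 72.0 to 109.9 and 78.9 to 86, so nhr-114 overlaps both neighbours. Unfed 100 mM larvae had the same 5 genes on top. In fed 500 mM larvae nhr-49 and nhr-1 came next, at 100.4 ± 10.5 and 97.1 ± 13.6, and overlapped, followed by nhr-88 at 84.4 ± 9.45 and nhr-46 at 82.6 ± 12.1. In unfed 500 mM larvae nhr-1, nhr-49, nhr-46 and nhr-40 followed nhr-97, with means of 103.1, 93.7, 89.8 and 62.9 CPM per kb and overlapping ranges. Thus nhr-68 and nhr-114 left the top 5 in both 500 mM groups. nhr-1 and nhr-46 rose in salt with food by log2 0.88 ± 0.28 and 0.89 ± 0.28.

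Where the receptors lie and how abundant they are was compared with their calls. Chromosome V holds 149 of the 229 placed receptors, and 127 lie in runs of 2 or more neighbouring receptors. In salt with food 17 of those 127 rose and 14 fell, with a median log2 fold change of 0.19, while of 95 without a neighbouring receptor 24 rose and 10 fell, with a median of 0.37. By mean level, 17 of the 77 most abundant receptors (above 15.1 CPM) rose and 5 fell, and 13 of the 77 least abundant (below 4.19 CPM) rose and 11 fell. Among 169 receptors with no exon overlap with another gene, 28 rose and 23 fell. Beside these counts, 16.1% of all genes rose and 22.1% fell in salt with food. These splits are descriptions, and no difference between them was tested.

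Of 5 nuclear receptors outside the numbered series, all were called in salt with food and 1 rose in salt without food. With all 12 libraries, none was called for lack of food at either salt level. Among all genes, 3.57% rose and 4.11% fell for lack of food at 100 mM NaCl. In salt 38.3% were called with food (16.1% higher, 22.1% lower), and 6.72% rose and 11.2% fell without. With food, sex-1, which counts X chromosomes in sex determination, rose by log2 2.15 ± 0.28, odr-7, an olfactory neuron receptor, by 3.34 ± 0.84, and fax-1, an axon pathfinding receptor, by 1.54 ± 0.50. The steroid receptor daf-12, which decides between growth and dauer arrest, fell by -1.64 ± 0.32 on the log2 scale, from 121, 147 and 191 CPM to 36.2, 50.1 and 61.3, and unc-55, which sets motor neuron identity, by -2.15 ± 0.72. In unfed 100 mM A, B and C daf-12 measured 74.3, 50.4 and 103 CPM, a food response of log2 -1.01 (adjusted p = 0.0571). Without unfed 100 mM C it was called lower, at log2 -1.425 (adjusted p = 0.0186), and the other receptors of this list were not called for food at 100 mM NaCl. Of 8 genes linked to sterol handling or to dafachronic acid, the daf-12 ligand, 5 fell and 1 rose in salt with food. In unfed against fed larvae at 100 mM NaCl 3 of them fell and 1 rose. In salt without food 1 fell, strm-1, by log2 -1.22. The list holds genes whatever the direction of their effect on the ligand. The ligand-making cytochrome P450 daf-9 fell from 16.1, 20.1 and 11.7 CPM in fed 100 mM to 2.89, 3.45 and 4.87 in unfed 100 mM (log2 -2.09 ± 0.33) and 2.96, 3.09 and 3.05 in fed 500 mM libraries (-2.39 ± 0.34). Of 5 tested receptor cofactors, the histone acetyltransferase cbp-1 and the lipid regulator sbp-1 rose in salt with food, by log2 1.1 ± 0.35 and 0.88 ± 0.30, and mdt-15, the Mediator subunit through which nhr-49 acts, was not called (0.62 ± 0.35).

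Tissue markers moved with salt and food as well. For scale, 16.1% of all genes rose and 22.1% fell in salt with food, and 6.72% rose and 11.2% fell without. For lack of food at 100 mM NaCl 3.57% of all genes rose and 4.11% fell. Of 7 tested intestinal markers, 5 fell and 1 rose in salt with and without food, and their sum was 6721 to 7688 CPM in fed 100 mM, 3597 to 7493 in unfed 100 mM, 1900 to 2170 in fed 500 mM and 1536 to 2692 in unfed 500 mM libraries. Of 8 epidermal markers, 6 fell and 1 rose with food, and 5 fell and 1 rose without, with sums of 2089 to 3696 and 1908 to 4257 CPM in the fed and unfed 100 mM groups against 274 to 360 and 287 to 334 in the 500 mM groups. Of 8 germline markers, 5 fell for lack of food at 100 mM NaCl, 6 fell in salt with food and 1 fell in salt without food; their sum was 347 to 423 CPM in fed 100 mM, 58.7 to 135.9 in unfed 100 mM, and 67.4 to 81.8 in the 500 mM libraries. Of 8 neuronal markers, 2 rose in salt with food and 1 rose for lack of food at 100 mM NaCl, where their sum was 1173 to 1359 CPM in fed and 1754 to 2276 in unfed libraries; in salt without food 1 rose and 1 fell. Of 8 muscle markers, 1 rose and 2 fell in salt with food, 1 rose in salt without food and 2 fell for lack of food at 100 mM NaCl, where their sum was 8683 to 13489 CPM in fed and 3954 to 7845 in unfed libraries, without overlap. No marker that was tested lay at 0 in all libraries. The part of these tissue changes in the receptors' levels was not tested.

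In the authors' deposited tables, made with edgeR's exact test for each pair of groups, 17 receptors had a false discovery rate under 0.05 for lack of food at 100 mM NaCl, 1 at 500 mM NaCl, 75 in salt with food and 44 in salt without food. Shares over all genes in those tables are not given here. Of the calls made here, 8 of 8, 1 of 1, 65 of 67 and 38 of 38 were also called in the authors' deposited tables, all in the same direction. Both sets of calls come from the same counts, so this overlap is no independent test of them.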

How the data were processed

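Whole-larva mRNA libraries, 3 per group, were made with a kit that keeps no strand, per the labels' protocols. Each deposited file lists unnormalized counts for 1 library; the submitters' processing notes name Bowtie 1.1.2 and HTSeq as the authors' tools. The genome build is not stated, so no coordinates or sequences are printed. The authors' deposited workbook holds edgeR tables with log2 fold changes and p-values, used for gene symbols and a comparison of calls, and a CPM table of 12 per-sample columns, which was not used. It lists genes with CPM over 1 in 3 libraries, per its notes sheet.

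The count model was fitted with edgeR 4.0.16 (R 4.3.3): filterByExpr (minimum count 10, minimum total count 15) left 18028 genes, ribosomal RNA included, libraries were scaled by TMM, and all 12 entered 1 robust quasi-likelihood fit with a coefficient per group. Tests were two-sided, with Benjamini-Hochberg adjustment per comparison over all genes, and a threshold of 0.05. The SE is the log2 fold change divided by the square root of F, and 95% intervals use the fit's degrees of freedom. Of the 67 receptors called in salt with food, 51 changed by more than 2-fold. In counts generated with known changes for salt with food, 7 of 100 changes of 2-fold were recovered. Of 100 changes of 4-fold, 57 were recovered, and there were 6 false calls. How many receptors changed without being called was not tested. Symbols, biotypes and coding lengths came from the RefSeq and Ensembl annotation of WBcel235; 229 of 230 receptors matched.

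The receptors, lists and tests were chosen with earlier results of these data known. Genes named are nhr-49, nhr-11, all role-list members, up to 8 highest and 8 lowest called receptors per comparison with at least 5 CPM and groups that do not overlap, interaction calls and the 5 highest per kb in each group; a few others, such as nhr-93, nhr-124, nhr-250 and the neighbour runs, were named after their values were seen. Replicates are labelled as separate samples; nothing in the sources used here says that a letter marks a shared batch. Alternatives were RLE and upper-quartile scaling, other count filters, DESeq2 1.42.0, edgeR's exact test, fits of 2 groups, ribosomal RNA genes left out, a replicate block and libraries left out.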

Additional observations from a re-analysis of the deposited data

Results flagged for a closer look

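The salt response of nhr-11 differed between larvae with and without food: the interaction was 1.80 on the log2 scale, since the transcript fell in salt with food and was about level without it. That of nhr-221 differed as well, with an interaction of -2.69, since it rose further in salt with food, from a lower starting level. Both differences were tested by edgeR's interaction term over all 18028 genes (adjusted p = 0.0183 and 0.035). The values rest on 3 libraries per group, and the calls held in 7 and 4 of the 12 fits that left out a library. No explanation for either was tested.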

How the results depend on the processing

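Counts of called receptors moved with several settings, and so did the share of all genes called, which is given in brackets. For lack of food at 100 mM NaCl, 8 were called (7.68%). Upper-quartile scaling gave 19 (9.14%) and a filter of 5 CPM in 3 libraries 18 (15.9%). A fit of the 2 groups gave 35 (23.3%), edgeR's exact test 52 (30.1%) and DESeq2 23 (14.8%). Leaving out unfed 500 mM A and fed 500 mM C gave 28 (17.7%). At 500 mM NaCl, 1 was called (0.0777%). Upper-quartile scaling (0.0721%), a fit of the 2 groups (0.00632%) and leaving out those 2 libraries (0.0493%) gave 0. No count filter gave 2 (0.619% of a wider set of genes). In salt with food, 67 were called (38.3%). Upper-quartile scaling gave 102 (41.4%), a fit of the 2 groups 105 (57.9%) and the exact test 109 (60.5%). In salt without food, 38 were called (17.9%), and those 2-group fits gave 17 (10.8%) and 23 (14.2%). For the interaction, 2 were called (2%). The 5 CPM filter gave 4 (5.13%), DESeq2 6 (6.94%), and leaving out the 2 libraries 5 (3.45%). Leaving out 1 library at a time gave 1 to 25, 0 to 1, 34 to 85, 19 to 49 and 0 to 8 in the same order. Shares of all genes then ran from 1.09% to 16.3%, 0% to 0.162%, 24.2% to 47.3%, 11.1% to 22.9% and 0.316% to 5.26%. With the replicate block the counts were 11, 1, 72, 44 and 2 (9.28%, 0.166%, 40.8%, 18.9% and 3.24%). Deviations of libraries from their group means were correlated between groups. The values ran from -0.09 to 0.35 for same-letter libraries and from -0.33 to 0.23 for different-letter libraries. Same-letter values of 0.352, 0.317, 0.287, 0.243 and 0.2345 lay above the highest different-letter value, 0.2255. Still, not every library correlated best with its own letter. These ranges overlap and do not settle whether a letter marks a shared batch. The letters are not taken as pairs, since the sources used here name no such batch. Among 265 values of named receptors, 58 were called; 30 of these were called in every alternative, 28 lost the call in at least 1, and none changed sign. Of the 207 uncalled values, 41 were called in at least 1 alternative and 78 changed sign in one, none of them called with the opposite sign. The cause of these differences was not tested. Depth limits receptors with few reads: fed 500 mM C holds 3167905 reads outside ribosomal RNA, and receptors with under about 20 reads in a group have imprecise folds.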
